A study of Homo sapiens with 18 samples.

Results

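The comparison set MCF10A cells given an ESR1 cDNA against the same cells given a YAP/TAZ cDNA. Its members were chosen by title, the 3 arrays titled with shNT and ESR1 cDNA and the 3 titled with shNT and YAP/TAZ cDNA, which makes 6 of the 18 arrays in the series. MCF10A is an established, non-tumorigenic human cell line from mammary epithelium. The cells of both groups had been infected with a lentivirus for a non-targeting hairpin (shNT) at a multiplicity of infection of 5. Puromycin selection (1.5 µg/ml) took 4 days, and at least 7 days of recovery followed. They were then transiently transfected by lipofection with a vector for 1 of the named cDNAs and kept for 5 days in M5, a medium containing estrogen, until lysis. No control array enters the difference. The 3 arrays with the control cDNA and the 3 with both cDNAs, all with the same hairpin, are given beside it as levels without a test. They also entered the estimate of the spread. The remaining 6 arrays, with hairpins against LATS1 or against LATS1 and LATS2, entered only that estimate. Labelled cDNA from 100 ng of total RNA was read on Affymetrix whole-transcript arrays, and every level below is a deposited log2 value.

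Estrogen receptor alpha, the product of ESR1, is a nuclear receptor that binds estradiol and then drives genes with estrogen response elements near them, such as TFF1, PGR and GREB1 in luminal breast cells. YAP (gene YAP1) and TAZ (gene WWTR1) are the co-activators at the end of the Hippo pathway. The kinases LATS1 and LATS2 hold them in the cytoplasm, and in the nucleus they bind TEAD factors and drive genes such as CCN1, CCN2, ANKRD1 and AMOTL2. MCF10A is a basal-like line usually counted as negative for estrogen receptor alpha. Interferon, which cells release on sensing foreign nucleic acid, induces a large set of antiviral genes through a promoter sequence called the interferon-stimulated response element.

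ESR1 followed the labels in the brighter of its 2 probe sets, the one used here. The ESR1 level there was 6.34, 6.52 and 6.53 in the 3 ESR1 arrays and 5.77, 5.83 and 5.60 in the 3 YAP/TAZ arrays. Every ESR1 array lay above every YAP/TAZ array, with means of 6.47 ± 0.105 and 5.73 ± 0.121 (SD, n = 3 each). The fitted difference, ESR1 minus YAP/TAZ as everywhere below, was 0.73 on the log2 scale (SE 0.081), a 1.66-fold higher level with an adjusted p of 0.00024 by limma, and 0.79 without ESR1 array 1. The other, dimmer probe set read 4.95, 5.06 and 5.09 against 5.00, 5.18 and 5.07. The groups overlapped there, and the difference was -0.05 (adjusted p = 0.78 by limma in a fit of all probe sets). The mean of both probe sets differed by 0.34 (adjusted p = 0.0071 by limma). The kept probe set had a mean of 5.52 in the control arrays and 6.03 in the arrays with both cDNAs.

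The levels of YAP1 and WWTR1 did not set the arrays labelled YAP/TAZ cDNA apart from the control arrays. YAP1 read 10.76, 10.80 and 10.82 in the YAP/TAZ arrays and 10.78, 10.44 and 10.45 in the ESR1 arrays, and the groups overlapped. WWTR1 read 9.39, 9.47 and 9.47 against 9.44, 9.11 and 9.07, again with overlap. The control arrays had means of 10.84 for YAP1 and 9.57 for WWTR1, above the YAP/TAZ arrays' means of 10.79 and 9.44. Without ESR1 array 1 the groups did not overlap, and both genes were called lower in the ESR1 arrays, YAP1 by -0.34 (adjusted p = 0.0022) and WWTR1 by -0.36 (adjusted p = 0.0064, both by limma). Set against the control arrays, the 2 probe sets showed no higher level under the label YAP/TAZ cDNA. Where they lie relative to the transfected cDNA was not analysed here, and the arrays are called YAP/TAZ arrays by label only. LATS1 and LATS2, which no hairpin targeted in these cells, differed by -0.05 and 0.02 with adjusted p of 0.84 and 0.94 by limma, and by -0.12 and -0.03 without ESR1 array 1 (0.35 and 0.83).

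The markers of the labelled cell type were above the dim mark, and most but not all markers of other cell types were under it. All 17 measured mammary epithelial markers had a group mean above 5.21, the 30th percentile of gene means used here as a mark of dim genes, with KRT19 lowest at 5.71 and KRT5 at 12.69. Of 27 measured markers of leukocytes, endothelium, fibroblasts and adipocytes, 17 lay under 5.21 in both groups, among them PTPRC, CDH5, LUM and ADIPOQ. The other 10 had a group mean at or above it, the highest at 9.67. The mean over these 27 was between 5.42 and 5.45 in all 6 arrays. CD14 and CD68, which epithelial cells can also express, were bright, and CD68, a lysosomal membrane protein, was the only one of the 27 called, 0.355 higher in the ESR1 arrays (adjusted p = 0.0084 by limma).

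ESR1 array 1 stood apart from its group. Across genes, it correlated at r = 0.9936 and 0.9932 with ESR1 arrays 2 and 3, and at 0.9974, 0.9981 and 0.9982 with the YAP/TAZ arrays. ESR1 arrays 2 and 3 correlated at 0.9979 with each other. Array 1 also correlated least within the control group (0.9966 and 0.9970, against 0.9982 between arrays 2 and 3). The same held in the group with both cDNAs (0.9974 and 0.9974 against 0.9989). These gaps were smaller, and the YAP/TAZ group showed none for its array 1 (0.9984 and 0.9988 against 0.9987). These r values are descriptions across genes, which are not replicates. limma's array weights were 0.213, 0.793 and 1.27 for ESR1 arrays 1, 2 and 3 and between 1.08 and 1.65 for the YAP/TAZ arrays. ESR1 array 1 was above every YAP/TAZ array in the kept ESR1 probe set. The counts over all genes and over each list below are therefore given with and without it. What set it apart was not tested. The labels do not tie replicates to separate cultures, so p-values speak only to the spread among these arrays, which may be technical. The number of arrays limits the precision, and in bulk RNA fewer cells of a kind and less RNA per cell cannot be told apart, nor can transfected and untransfected cells.

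Of 18404 genes, 111 (0.603%) passed an adjusted p of 0.05 in the limma fit, 58 higher with ESR1 cDNA (0.315%) and 53 lower (0.288%). A passing gene is called below. With each array centred on its median, 38.9% of the called genes were higher, against 52.3% as deposited. The differences were small, with a median of 1.33-fold over the called genes. A fold of 1.5 or more was reached by 25 called genes (0.136%), 18 higher (0.0978%) and 7 lower (0.0380%). The 3 arrays of 1 group lay beyond the 3 of the other for 2279 genes (12.4%), 1073 with the ESR1 arrays above and 1206 below, and all 111 called genes were among them. The estimate of the spread rested on all 18 arrays. With the 6 arrays alone, 2 genes were called, XAF1 and GMPR, both at an adjusted p of 0.044 by limma.

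Without ESR1 array 1 the count of called genes was 2947 (16.0%), 973 higher (5.29%) and 1974 lower (10.7%). At least 1.5-fold were 178 of them (0.967%), 130 higher (0.706%) and 48 lower (0.261%). All 111 genes were called again in the same direction, and 2836 were added. For the 130 larger rises, ESR1 arrays 2 and 3 lay a median of 0.711 above the YAP/TAZ mean while array 1 lay at -0.0455. For the 48 larger falls the medians were -0.646 and -0.00293. Array 1 was nearer to the YAP/TAZ mean than to the mean of ESR1 arrays 2 and 3 in 154 of these 178 genes. The 178 had been selected on arrays 2 and 3 without array 1, which favours this outcome. The genes called with all 6 arrays had been selected on array 1 too. The 58 higher ones had medians of 0.438 in arrays 2 and 3 and 0.528 in array 1, and the 53 lower ones -0.403 and -0.256. Leaving out any 1 of the other 5 arrays gave between 48 and 60 called genes, and 36 genes (23 higher, 13 lower) were called whichever of the 6 arrays was left out. Of the 48 called genes that the naming rule picked, 21 were among these and 27 missed the threshold without at least 1 of the other 5 arrays, at an adjusted p of 0.23 or less by limma.

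**Figure D1:**
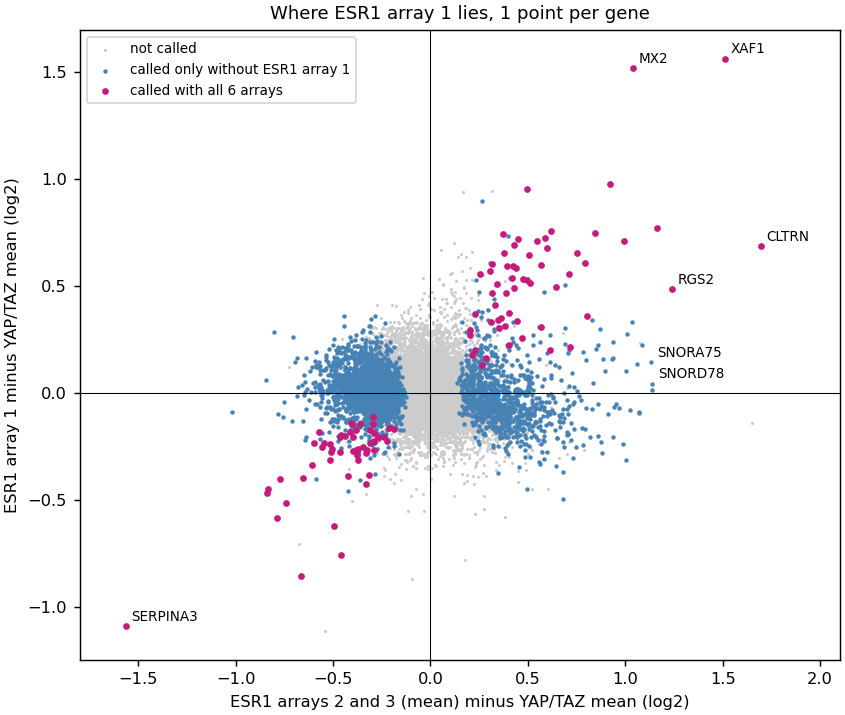
Each point is 1 of the 18404 genes, with the mean of ESR1 arrays 2 and 3 minus the YAP/TAZ mean on the horizontal axis and ESR1 array 1 minus the YAP/TAZ mean on the vertical axis, both log2 differences. The 111 genes called with all 6 arrays lie along the diagonal, and the 2836 called only without array 1 lie in 2 bands near 0 on the vertical axis. Both positions follow in part from how the genes were selected.

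The list with the most called members was that of interferon-induced antiviral genes, which were higher in the ESR1 arrays. Of 37 measured effectors, 13 were called higher and none lower, with a median difference of 0.293, against 0.315% of all genes called higher and a median of -0.000898 over all genes. In 27 of the 37 all ESR1 arrays lay above all YAP/TAZ arrays. Over all 18404 genes this held for 1073, and 12.4% were without overlap in either direction. The count of called effectors became 22 higher and 1 lower without ESR1 array 1, with a median of 0.310. In that fit 5.29% of all genes were called higher and 10.7% lower. The mean over the list was 9.78, 9.69 and 9.70 in the ESR1 arrays and 9.32, 9.39 and 9.38 in the YAP/TAZ arrays, so ESR1 array 1 was the highest of the 6. The control arrays had list means of 7.83, 8.0 and 7.86 and the arrays with both cDNAs 10.13, 10.11 and 10.10.

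**Figure D2:**
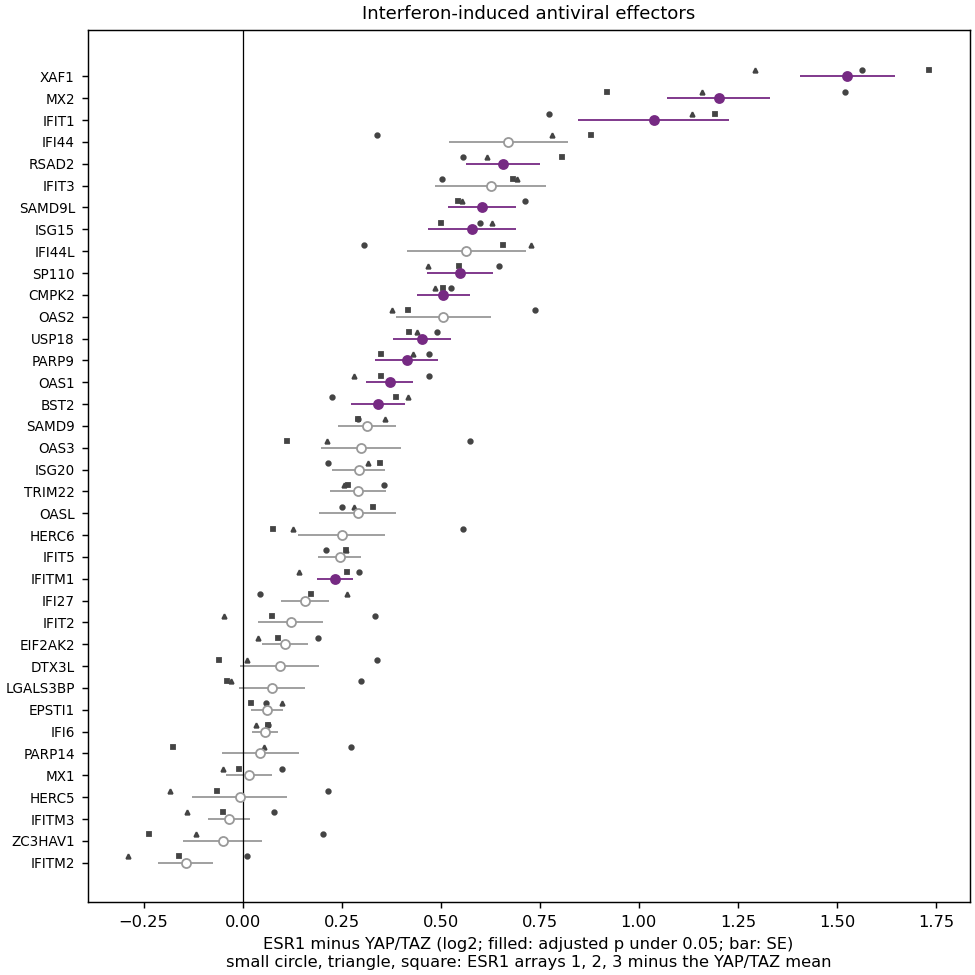
The 37 measured interferon-induced effectors are ranked by ESR1 minus YAP/TAZ on a log2 axis, with the fitted difference and its SE as a large point and bar and each ESR1 array minus the YAP/TAZ mean as small marks. The 13 called genes are filled, from XAF1 at 1.53 to IFITM1 at 0.23, and the lowest member is IFITM2 at -0.14.

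XAF1, an interferon-induced antagonist of the apoptosis inhibitor XIAP, had the largest difference of all called genes. Its level was 8.10, 7.83 and 8.27 in the ESR1 arrays and 6.37, 6.71 and 6.53 in the YAP/TAZ arrays. The groups were far apart, and the difference of 1.53 (SE 0.12) was 2.88-fold, with an adjusted p of 9.4e-06 by limma. MX2, a dynamin-like GTPase that blocks viral nuclear entry, read 7.89, 7.53 and 7.29 against 6.11, 6.54 and 6.46, which is 2.30-fold higher (log2 difference 1.20, SE 0.13, adjusted p = 0.00024). Here ESR1 array 1 was the highest. IFIT1, which binds viral RNA lacking the host cap structure, read 10.42, 10.78 and 10.84 against 9.66, 9.65 and 9.63, or 2.05-fold higher (log2 difference 1.04, SE 0.19, adjusted p = 0.020). The mean in the control arrays was 5.64. IFIT1 missed the threshold without any 1 of the other 5 arrays, at adjusted p from 0.085 to 0.11, whereas XAF1 and MX2 kept their call.

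The other called effectors differed by less than 2-fold. RSAD2, which makes a chain-terminating nucleotide, was 0.66 higher, and CMPK2, its neighbour in function that supplies the nucleotide, was 0.51 higher. SAMD9L, a translation inhibitor, was 0.605 higher, the nuclear body protein SP110 0.55 higher and ISG15, a ubiquitin-like modifier, 0.58 higher. USP18, the protease that removes ISG15 and damps the interferon receptor, was 0.45 higher. PARP9, OAS1, BST2 and IFITM1 were between 0.23 and 0.41 higher. All 10 were called in the limma fit, with adjusted p from 0.0017 to 0.032, and again without ESR1 array 1. RSAD2, CMPK2, SAMD9L, SP110, USP18 and OAS1 kept their call whichever array was left out. ISG15, PARP9, BST2 and IFITM1 missed the threshold without at least 1 of the other arrays. IFI44, IFIT3 and IFI44L differed by 0.67, 0.63 and 0.56 with adjusted p of 0.064, 0.054 and 0.12, and each was called without ESR1 array 1, at adjusted p between 0.0028 and 0.0084 by limma.

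Not every effector differed. IFI6, already at 13.13 to 13.20 in all 6 arrays, differed by 0.06. MX1 and EPSTI1 read between 4.67 and 5.26 in these arrays, near or under the dim mark, and in MX1 the control arrays read no lower, at 5.19. OAS3, HERC6, DTX3L and PARP14 were highest in ESR1 array 1 among the 6 arrays. IFITM2 was the 1 effector called lower without that array, by -0.22 (adjusted p = 0.030 by limma).

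Fewer members were called in the other layers of the interferon system. With all 6 arrays, 0.315% of all genes were called higher and 0.288% lower. Among 26 RNA sensors and signalling factors, 1 was called higher and none lower (median 0.039). That gene was IRF7, the factor that amplifies type I interferon transcription, at 7.76, 7.76 and 7.71 in the ESR1 arrays against 7.36, 7.40 and 7.52. The groups did not overlap, and the difference was 0.32 (SE 0.065, adjusted p = 0.034 by limma). IRF7 missed the threshold in 4 of the 5 fits without 1 of the other arrays, at up to 0.16. With ESR1 array 1 left out, 5 were higher and 2 lower, against 5.29% and 10.7% of all genes, the lower ones being the receptor-associated kinases JAK1 (-0.44) and TYK2 (-0.33). Of 15 antigen presentation and guanylate-binding genes, none was called with 6 arrays, and 3 were called higher without array 1 (5.29% of all genes were), the proteasome subunits PSMB8 (0.50) and PSMB9 (0.25) and the class I light chain B2M (0.335). Of 24 chemokines and interleukins, IL24 alone was called with 6 arrays (median of the list 0.112). IL24, a cytokine of the IL-10 family, read 7.50, 7.78 and 7.78 against 6.89, 6.69 and 6.78, a 1.86-fold higher level (log2 difference 0.90, SE 0.090, adjusted p = 0.00010). Without array 1, 6 of the 24 were called higher and none lower, against 5.29% of all genes called higher in that fit, among them CXCL11 (1.08), the death ligand TNFSF10 (1.01), CXCL10 (0.69) and IL18 (0.455). CXCL11 read 8.29, 9.05 and 9.25 in the ESR1 arrays and 8.07, 8.07 and 8.06 in the YAP/TAZ arrays, so array 1 lay nearer to the latter.

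Several called genes outside these lists are known interferon targets as well and were picked after their values had been seen. They were IFI35, LGALS9, GBP6, BATF2, PLSCR1 and LAMP3, which differed by 0.48, 0.62, 0.405, 0.35, 0.40 and 0.50, with adjusted p from 0.0055 to 0.049 by limma.

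The promoters of 3 called antiviral genes, chosen for holding the interferon-stimulated response element, are shown so that the element can be read directly. Its core was searched on both strands as GAAANNGAAA, or its reverse complement, in the 250 bases before the RefSeq start of each gene. Sequences are RefSeq promoters of build GRCh38.p14, written 5′ to 3′ on the strand of the gene, and capitals mark the matched core. The windows are chr10:89392373-89392622 on the plus strand for IFIT1, chr1:1013247-1013496 on the plus strand for ISG15 and chr19:17405631-17405880 on the minus strand for BST2.
IFIT1: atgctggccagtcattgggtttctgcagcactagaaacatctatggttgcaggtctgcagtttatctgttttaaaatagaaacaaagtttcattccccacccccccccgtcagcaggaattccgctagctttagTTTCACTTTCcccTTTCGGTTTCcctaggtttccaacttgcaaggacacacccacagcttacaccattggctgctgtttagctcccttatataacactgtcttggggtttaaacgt
ISG15: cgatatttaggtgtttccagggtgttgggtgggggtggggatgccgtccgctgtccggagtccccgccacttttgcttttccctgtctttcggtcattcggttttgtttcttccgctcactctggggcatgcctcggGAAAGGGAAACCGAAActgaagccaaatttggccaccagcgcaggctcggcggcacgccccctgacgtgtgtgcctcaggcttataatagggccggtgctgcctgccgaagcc
BST2: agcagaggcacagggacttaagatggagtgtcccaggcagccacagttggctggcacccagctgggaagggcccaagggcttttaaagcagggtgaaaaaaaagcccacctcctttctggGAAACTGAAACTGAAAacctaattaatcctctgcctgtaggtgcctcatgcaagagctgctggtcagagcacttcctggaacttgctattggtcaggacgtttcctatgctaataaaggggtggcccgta
Each window holds 2 matches, starting 116 and 103 bases before the start of IFIT1, 113 and 107 before ISG15 and 130 and 124 before BST2, and the matches overlap in ISG15 and BST2. A promoter was found for 14230 of the 18404 genes, and 366 of these (2.57%) held the core. It was present in 7 of the 46 promoters of genes called higher (15.2%), those of IFIT1, ISG15, BST2, IFITM1, PLSCR1, IL24 and the antisense gene ANXA2R-AS1, and in none of the 43 of genes called lower. Among the interferon effectors 18 of 30 promoters held it (60%). These were 4 of 11 promoters of called effectors (36.4%), those of IFIT1, ISG15, BST2 and IFITM1, and 14 of 19 of effectors not called (73.7%), IFI6, OAS3 and HERC5 among them.

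The same search was made for the elements of the other 2 pathways. The palindromic estrogen response element GGTCANNNTGACC was in 1 of 14230 windows and in none of the called genes. Its core GGTCA, which also lies inside the palindrome, was in 41.3% of windows of genes called higher, 25.6% of those called lower and 30.8% of all. The TEAD site GGAATG was in 17.4% of windows called higher (8 of 46, ANKRD1 among them), 2.33% of those called lower and 10% of all. A match is a description of the letters in these 250 bases, and enhancers farther away were not searched.

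Of 26 measured direct targets of YAP and TAZ, 2 were called and both were higher in the ESR1 arrays, against 0.315% of all genes called higher, with a median of -0.012 over the list. In 6 targets all ESR1 arrays lay above all YAP/TAZ arrays and in 2 below, against 12.4% of all genes without overlap. ANKRD1, a nuclear ankyrin repeat protein, read 5.62, 5.76 and 5.99 with ESR1 cDNA and 5.38, 5.29 and 5.26 with YAP/TAZ cDNA. The groups did not overlap, and the difference was 0.48 (SE 0.072, adjusted p = 0.0041 by limma). AMOTL2, a membrane scaffold that binds YAP, read 7.48, 7.42 and 7.38 against 7.00, 7.12 and 7.08, higher by 0.36 (SE 0.063, adjusted p = 0.012 by limma). AMOTL2 missed the threshold in 2 of the 5 fits without 1 of the other arrays, at up to 0.083. The matricellular genes CCN1 and CCN2 differed by 0.08 and -0.10 with adjusted p of 0.75 and 0.55. CCN1 read 8.67, 8.76 and 8.96 against 8.87, 8.64 and 8.65, with overlap. The remaining members ranged from AXL, a receptor tyrosine kinase, at -0.21 to the stress gene GADD45B at 0.29, and none of them was called. When ESR1 array 1 was left out, MYOF (-0.35) and NT5E (-0.22) were called lower beside the same 2 higher genes, against 10.7% of all genes called lower in that fit.

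The Hippo components showed the same small scale. Among 24 measured components and TEAD partners, VGLL3 alone was called (median of the list -0.019). Over all genes, 0.315% were called higher and 0.288% lower. VGLL3, a TEAD-binding cofactor that competes with YAP, read 9.46, 9.34 and 9.23 in the ESR1 arrays and 8.87, 8.84 and 8.88 in the YAP/TAZ arrays, higher by 0.48 (SE 0.10, adjusted p = 0.049 by limma, and 0.073 to 0.16 without 1 of the other arrays). TEAD1, TEAD2, TEAD3 and TEAD4 differed by between -0.01 and 0.02. A total of 7 components were called lower without ESR1 array 1, against 10.7% of all genes, among them YAP1 (-0.34), WWTR1 (-0.36), the scaffold SAV1 (-0.33) and the kinase TAOK3 (-0.42).

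Estrogen response genes were not higher as a group where ESR1 was. Of 29 measured, none was called higher and 2 were called lower, against 0.315% and 0.288% of all genes, with a median of 0.006. The classical targets TFF1, PGR and GREB1 lay between 4.56 and 5.51 in all 6 arrays, near or under the dim mark, and differed by at most 0.02 in size. FOS, an immediate early gene, read 8.28, 8.05 and 8.04 with ESR1 cDNA and 8.52, 8.41 and 8.45 with YAP/TAZ cDNA, lower by -0.335 (SE 0.058, adjusted p = 0.012 by limma). CA12, a membrane carbonic anhydrase, read 9.73, 9.59 and 9.49 against 9.93, 9.95 and 9.93, lower by -0.33 (SE 0.065, adjusted p = 0.026). CA12 missed the threshold without any 1 of the other 5 arrays, at adjusted p from 0.098 to 0.16 by limma. FOS missed it in 3 of these 5 fits, at up to 0.078. STC2, a secreted glycoprotein, was 0.24 higher with every ESR1 array above every YAP/TAZ array, at an adjusted p of 0.061. It was called without array 1 (0.29, adjusted p = 0.0052), together with MYB (-0.40) and CTSD (-0.25) as lower. In that fit 5.29% of all genes were called higher and 10.7% lower.

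Among 15 estrogen receptors and co-regulators, ESR1 alone was called, against 0.315% of all genes called higher. The pioneer factor FOXA1 differed by 0.11 (adjusted p = 0.44), GATA3 by 0.02 (0.94) and the second receptor ESR2, at 4.62 to 4.81, by 0.10 (0.45, all by limma). Without ESR1 array 1 the co-repressor SAFB (-0.59), TFAP2C (-0.32), PELP1 (-0.28) and CTBP1 (-0.25) were called lower, against 10.7% of all genes called lower in that fit. SULT1E1, the sulfotransferase that inactivates estradiol, is in neither list and was picked after its values had been seen. It read 5.67, 5.59 and 5.80 against 5.36, 5.11 and 5.41, higher by 0.40 at an adjusted p of 0.049 by limma.

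**Figure D3:**
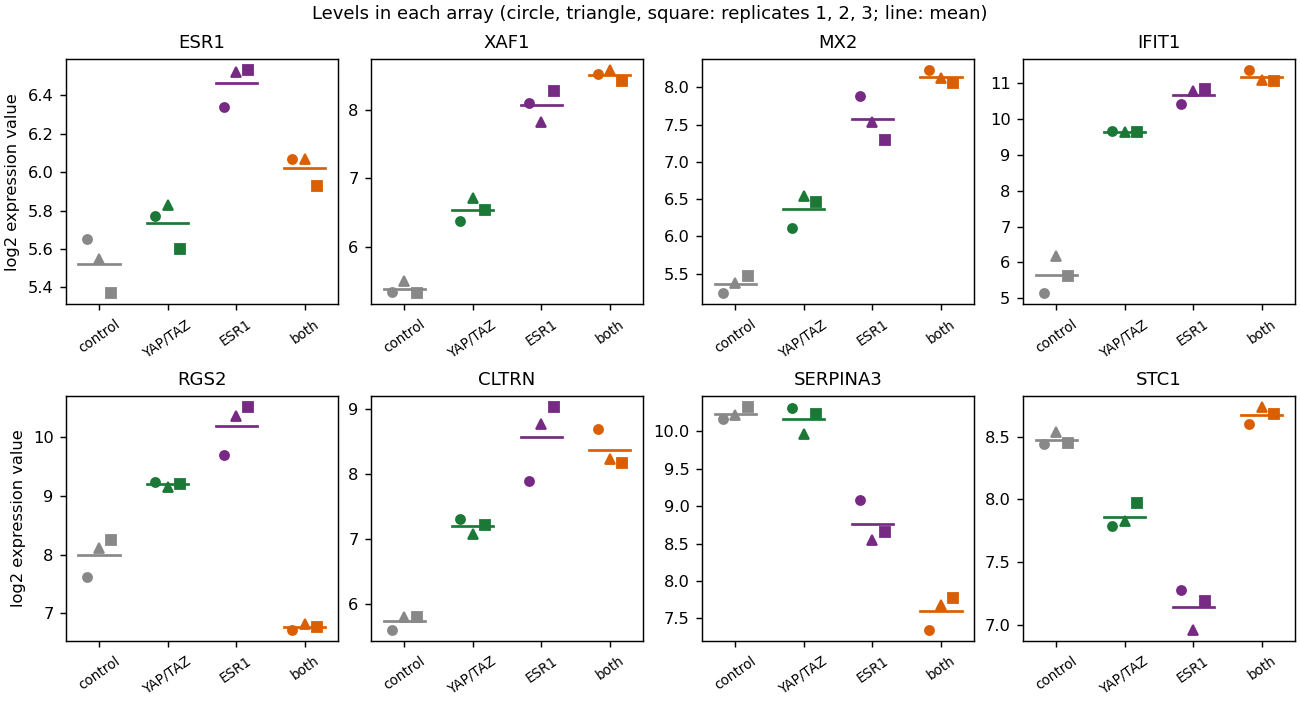
Log2 levels of 8 genes in the 3 arrays of each of 4 groups, with circle, triangle and square for replicates 1, 2 and 3 and a line at the group mean. ESR1, XAF1, MX2, IFIT1, RGS2 and CLTRN lie higher in the ESR1 arrays than in the YAP/TAZ arrays, and SERPINA3 and STC1 lower; the control arrays and the arrays with both cDNAs are shown for level only.

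Among the other large rises, CLTRN, a renal amino acid transport regulator also known as collectrin, read 7.89, 8.77 and 9.03 in the ESR1 arrays and 7.31, 7.08 and 7.22 in the YAP/TAZ arrays. The groups did not overlap, with array 1 the lowest of the ESR1 arrays. The difference of 1.36 (2.57-fold, SE 0.22, adjusted p = 0.0063 by limma) was 1.70 without it. RGS2, which shortens Gq signalling, read 9.69, 10.37 and 10.52 against 9.24, 9.16 and 9.21, or 1.99-fold higher (log2 difference 0.99, SE 0.19, adjusted p = 0.020, and 0.083 to 0.13 without 1 of the other arrays). Its mean in the arrays with both cDNAs was 6.76, below the 8.0 of the control arrays. GMPR, which converts GMP to IMP, read 8.29, 8.16 and 8.31 against 7.24, 7.43 and 7.27. The spread within both groups was small, and the 1.92-fold difference (log2 0.94, SE 0.072) had an adjusted p of 9.4e-06.

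OLR1, a receptor for oxidised LDL, was 1.76-fold higher (log2 difference 0.81, SE 0.14, adjusted p = 0.012 by limma). OLR1 missed the threshold in 4 of the 5 fits without 1 of the other arrays, at up to 0.065. The matrix protein MFAP5 was 1.65-fold higher (adjusted p = 0.0051). LCN2, an iron-siderophore carrier induced by NF-kB, read 8.20, 8.04 and 8.08 against 7.51, 7.44 and 7.38, with all 3 ESR1 arrays above, and was 1.58-fold higher (SE 0.084 on the log2 scale, adjusted p = 0.0013). ANKRD2, a muscle ankyrin repeat protein related to ANKRD1, was 1.57-fold higher, and LOC731157 1.58-fold higher, with adjusted p of 0.034 and 0.028 by limma. LOC731157 missed the threshold without any 1 of the other 5 arrays, at adjusted p from 0.093 to 0.16. ANKRD2 missed it in 4 of these 5 fits, at up to 0.15. CLDN1, a tight junction claudin, had a smaller difference with little spread. It read 10.95, 10.88 and 10.90 against 10.34, 10.44 and 10.47, higher by 0.495 (SE 0.044, adjusted p = 3.4e-05 by limma), and it was called whichever array was left out.

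The largest fall was in SERPINA3, the acute phase protease inhibitor alpha-1-antichymotrypsin. It read 9.08, 8.55 and 8.66 in the ESR1 arrays and 10.31, 9.97 and 10.23 in the YAP/TAZ arrays. All ESR1 arrays lay below, and the level was 2.65-fold lower (log2 difference -1.41, SE 0.13, adjusted p = 6.2e-05 by limma). The YAP/TAZ mean of 10.17 was close to the control mean of 10.24, and the mean with both cDNAs was 7.60. STC1, a secreted glycoprotein, read 7.28, 6.96 and 7.19 against 7.79, 7.83 and 7.97, and was 1.65-fold lower (SE 0.086 on the log2 scale, adjusted p = 0.00069). ACO1, the cytosolic aconitase that doubles as iron regulatory protein, read 9.10, 8.71 and 8.72 against 9.55, 9.57 and 9.53, and was 1.63-fold lower (adjusted p = 0.0017). NDRG1, a stress gene induced by hypoxia and iron loss, was 1.58-fold lower and PDK4, which restrains pyruvate dehydrogenase, 1.56-fold lower, with adjusted p of 0.0038 and 0.0044.

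CHI3L1, a secreted chitinase-like protein, was 1.66-fold lower at the edge of the threshold (adjusted p = 0.049), and the itch receptor relative MRGPRX3 was 1.64-fold lower (0.0084). MRGPRX3 missed the threshold in the mean of its 2 probe sets (-0.48, adjusted p = 0.062 by limma). INSC, an adaptor for spindle orientation, the calcium-binding alarmin S100A9 and ALOX5AP, which presents arachidonic acid for leukotriene synthesis, were lower by -0.57, -0.56 and -0.53. The last 4 of the 14 largest falls were extracellular: SRPX (-0.51), the latent TGF-beta binding protein LTBP1 (-0.47), the serine protease HTRA1 (-0.46) and the collagen crosslinking enzyme LOXL2 (-0.45), with adjusted p from 0.0041 to 0.039 by limma. All 14 largest rises and 14 largest falls kept their call without ESR1 array 1. CHI3L1, S100A9, LTBP1 and LOXL2 lost it without any 1 of the other 5 arrays, at adjusted p of up to 0.21, 0.22, 0.21 and 0.20 by limma. INSC, ALOX5AP and MRGPRX3 lost it without some of them, at up to 0.18, 0.086 and 0.062.

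Hypoxia and glycolysis genes held 3 of the called falls among 23 measured and no rise, against 0.288% of all genes called lower, with a median of -0.102. Beside NDRG1 these were ANGPTL4, a lipase inhibitor, at -0.34 (adjusted p = 0.0041) and the collagen prolyl hydroxylase P4HA1 at -0.31 (0.024, both by limma). P4HA1 missed the threshold without any 1 of the other 5 arrays, at adjusted p from 0.078 to 0.12 by limma. ANGPTL4 read 10.78, 10.87 and 10.83 against 11.17, 11.17 and 11.15, a narrow spread in both groups. Leaving out ESR1 array 1 gave 9 called lower, against 10.7% of all genes, and 1 higher, ADM at 0.275.

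Feedback genes of AP-1 and ERK signalling also held 3 called falls and no rise among 21 measured (median -0.097), again against 0.288% of all genes. DUSP6, the phosphatase that switches off ERK, read 9.58, 9.33 and 9.28 in the ESR1 arrays and 9.79, 9.85 and 9.82 in the YAP/TAZ arrays, lower by -0.42 (SE 0.061, adjusted p = 0.0038 by limma). The zinc finger factor EGR1 was lower by -0.34 (adjusted p = 0.017, and 0.064 to 0.094 without 1 of the other arrays), and the third was FOS. With ESR1 array 1 left out, 8 were lower and 1 higher, against 10.7% and 5.29% of all genes, with ETV4 (-0.46) and SPRED2 (-0.33) added below and SPRY2 (0.25) above.

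Epithelial identity genes were split between single members. Of 25 luminal genes 3 were called higher and none lower: ESR1, the surface glycoprotein CD24 (0.335, adjusted p = 0.015) and the adhesion molecule EPCAM (0.22, adjusted p = 0.014). CD24 and EPCAM missed the threshold without some of the other arrays, at adjusted p of up to 0.092 and 0.083 by limma. EPCAM read 10.68, 10.72 and 10.70 against 10.46, 10.46 and 10.52, a small difference with a smaller spread. The mean of its 2 probe sets differed by 0.23 (adjusted p = 0.06 by limma). With array 1 left out, SLPI was also higher (0.39) and the keratins KRT18 (-0.345) and KRT8 (-0.31) were among 3 lower. None of 17 basal genes was called (median -0.085), and without ESR1 array 1 the endopeptidase MME (-0.59), ACTA2 (-0.45), ITGA6 (-0.34) and ITGB4 (-0.21) were lower. Among 23 genes of epithelial-mesenchymal transition, the intermediate filament gene VIM was called lower, at 10.74, 10.42 and 10.43 against 10.96, 10.96 and 11.00 (-0.445, SE 0.087, adjusted p = 0.026 by limma, and 0.093 to 0.16 without 1 of the other arrays). FN1, LOX and TGFBI joined it without array 1, at -0.40, -0.38 and -0.25, and OVOL1 was higher at 0.23. Over all genes, 0.315% were called higher and 0.288% lower with all 6 arrays, and 5.29% and 10.7% without array 1.

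The remaining lists had at most 2 called members with all 6 arrays, where 0.315% of all genes were called higher and 0.288% lower. LCN2 was higher and the mitochondrial dismutase SOD2 lower (-0.35, adjusted p = 0.012) among 18 NF-kB genes, and without ESR1 array 1 the count was 2 higher and 5 lower, NFKB1 (-0.56) included. SERPINA3 was the 1 called gene of 13 complement and acute phase genes, and S100A9 of 31 cornified envelope genes. CHAC1, which degrades glutathione downstream of ATF4, was the 1 of 24 stress response genes (0.55, adjusted p = 0.046), and INSIG1, an inhibitor of sterol synthesis, the 1 of 24 sterol and fatty acid genes (0.23, adjusted p = 0.034). Of 21 TGF-beta, BMP and ID genes, ID3 was called higher (0.20, adjusted p = 0.049) and LTBP1 lower. Among 17 mammary identity genes CLDN1 and EPCAM were called higher. SOD2, CHAC1, INSIG1 and ID3 were called again without ESR1 array 1, at -0.37, 0.72, 0.21 and 0.215. CHAC1 missed the threshold without any 1 of the other 5 arrays, at adjusted p from 0.10 to 0.23. SOD2, INSIG1 and ID3 missed it without some of them, at up to 0.08, 0.15 and 0.22. Left without that array, the mammary identity list held 2 higher and 5 lower genes, the stress response list 4 and 3, the sterol list 4 and 5, the TGF-beta list 2 and 6, the cornified envelope list 2 and 2 and the complement list 0 and 2. No member was called with all 6 arrays among 18 p53 targets, 18 NRF2 targets, 16 glucocorticoid and metallothionein genes, 12 EGF family genes, 25 matrix genes and 23 ribosomal protein genes. Without ESR1 array 1 each of these lists had calls. The p53 targets had 1 higher and 2 lower, the NRF2 targets 1 and 3, the glucocorticoid genes 0 and 1 (the receptor gene NR3C1), the EGF family 1 (EPGN) and 0, the matrix genes 0 and 4 and the ribosomal proteins 4 and 0. Over all genes that fit called 5.29% higher and 10.7% lower. All of these p are limma's.

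**Figure D4:**
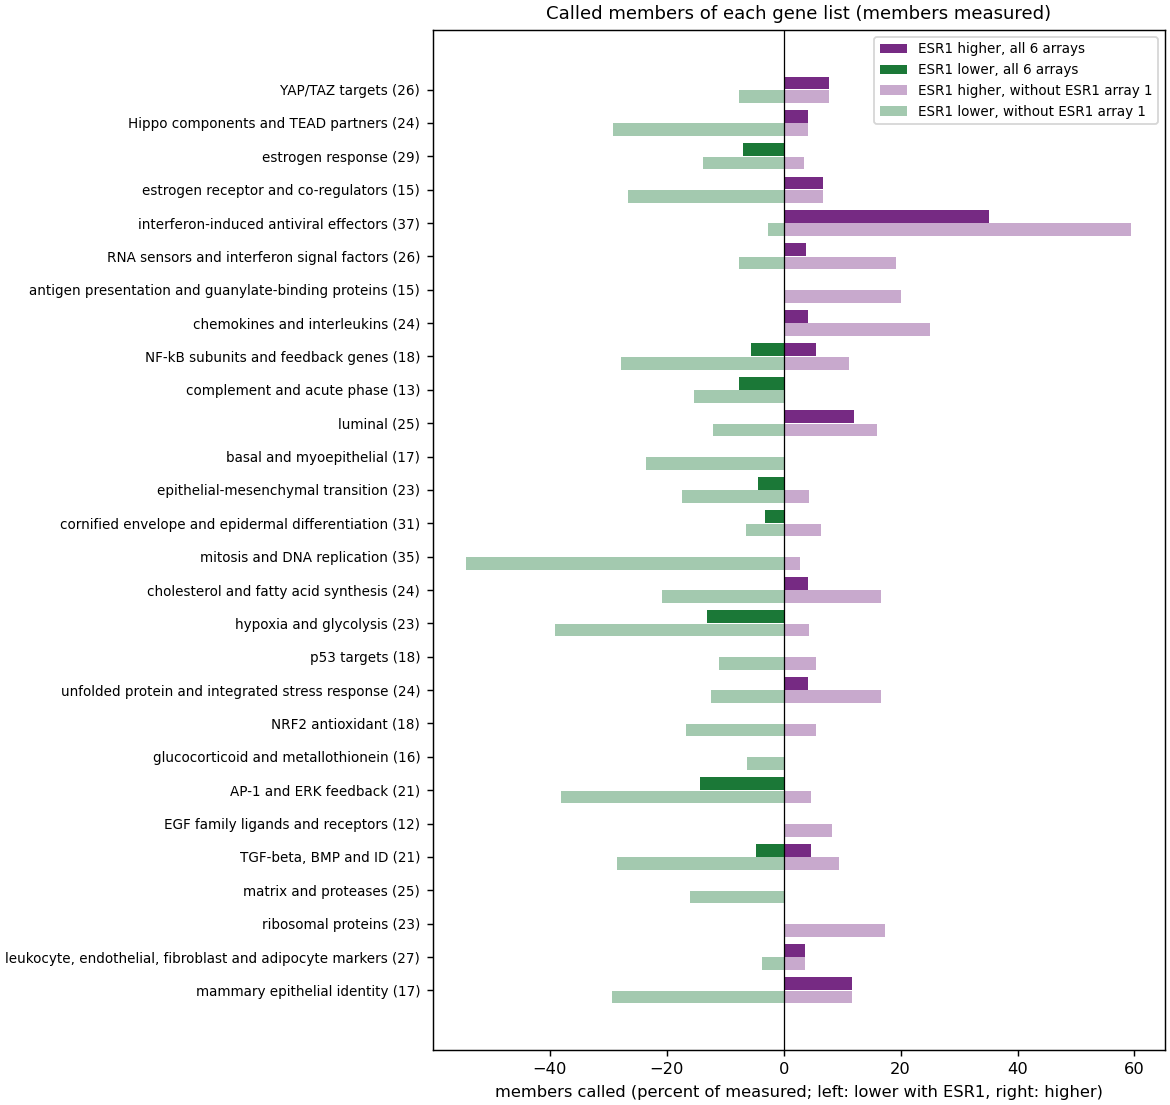
For each of 28 gene lists, with the number of members measured in brackets, bars give the percent of members called higher (right) or lower (left) in the ESR1 arrays, dark with all 6 arrays and pale without ESR1 array 1. The interferon-induced effectors reach 13 of 37 higher with all arrays and 22 of 37 without array 1, and mitosis and DNA replication genes 0 of 35 lower and 19 of 35 lower.

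Mitosis and DNA replication genes were the list whose count of called members changed most, among the 28, when ESR1 array 1 was left out. None of 35 was called with 6 arrays (median -0.121), against 0.603% of all genes. Without array 1 there were 19 lower and 1 higher (median -0.225), against 10.7% and 5.29% of all genes in that fit. In all 20 of these genes array 1 lay nearer to the YAP/TAZ mean than to the mean of arrays 2 and 3. They had been selected as called only without array 1, so this position follows in part from the selection. The mean over the list was 9.74, 9.55 and 9.55 in the ESR1 arrays and 9.72, 9.75 and 9.75 in the YAP/TAZ arrays, so array 1 sat with the YAP/TAZ arrays. MCM6, a subunit of the replicative helicase, read 9.11, 8.44 and 8.69 against 9.17, 9.18 and 9.13, a difference of -0.41 with all arrays (adjusted p = 0.11) and -0.59 without array 1 (adjusted p = 0.00019 by limma). BUB1B, a spindle checkpoint kinase, changed from -0.49 (adjusted p = 0.077) to -0.64 (adjusted p = 0.0022), and KIF11, MCM4 and MCM2 were lower by between -0.575 and -0.50 without it. Cyclin E2 (CCNE2) was the 1 member called higher, by 0.40. CCNB1, NUSAP1, TYMS and BIRC5 were called in neither fit.

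The same naming rule applied without ESR1 array 1, which was added after the data had been seen, brought in small RNAs among the rises. Among the 14 largest rises were SNORD77, SNORD78, SNORD79, SNORA10, SNORA74A and SNORA75, small nucleolar RNAs that guide the modification of ribosomal RNA, and SCARNA9L. SNORD78 read 9.61, 10.69 and 10.72 in the ESR1 arrays and 9.66, 9.55 and 9.49 in the YAP/TAZ arrays. Array 1 lay within the YAP/TAZ range, and the difference was 0.78 with all arrays (adjusted p = 0.18) and 1.14 without array 1 (adjusted p = 0.0013 by limma). SNORD77, SNORD78 and SNORD79 are processed from introns of 1 host gene, GAS5, and are not independent of each other. PDCD4, a translation inhibitor, had the largest added fall. It read 8.59, 7.76 and 7.56 against 8.65, 8.63 and 8.76, lower by -0.71 with all arrays (adjusted p = 0.11) and -1.02 without array 1 (adjusted p = 0.00015). DOCK11, KIF27, BICC1, SHCBP1, WDHD1, IPO8 and CLSPN followed, at between -0.835 and -0.71.

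The RefSeq class of small nucleolar RNAs was chosen after its values had been seen. None of its 175 genes was called with all arrays, against 0.603% of all genes. Without array 1, 58 were called higher and 1 lower, against 5.29% and 10.7% of all genes. The class mean was 6.25, 6.55 and 6.70 in the ESR1 arrays, 6.39, 6.25 and 6.30 in the YAP/TAZ arrays and 6.12, 6.37 and 6.34 in the control arrays. ESR1 arrays 2 and 3 were above these others, and array 1 was level with the YAP/TAZ arrays. Outside these groups, 1 of the 3 arrays with the hairpin against LATS1 and LATS2 read 6.63, above ESR1 array 2, and the other two read 6.33 and 6.32. The genomic span of a gene, from the RefSeq table of GRCh38.p14, had a median of 24.5 kb over all genes, 17.4 kb over the 58 called higher and 48.9 kb over the 53 called lower. Without array 1 the medians were 14.3 kb and 50.8 kb, and among protein-coding genes 16.6 kb and 51.1 kb against 27.3 kb over all of them. The quality of the RNA was not given in the sources used here, and its part in these differences was not tested.

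**Figure D5:**
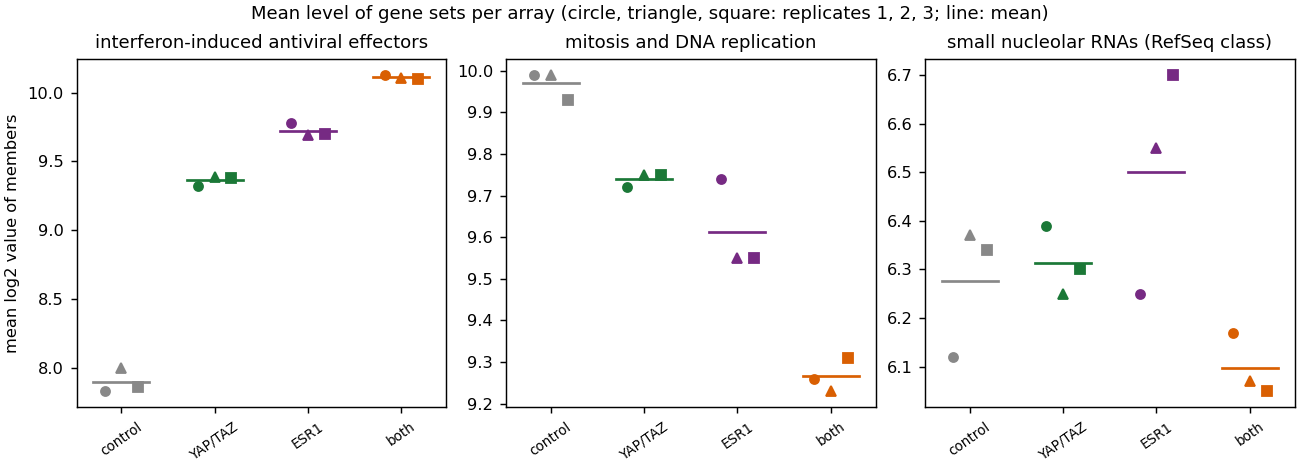
Mean log2 value over the members of 3 gene sets in each array of 4 groups, with circle, triangle and square for replicates 1, 2 and 3 and a line at the group mean. For the interferon-induced effectors all 3 ESR1 arrays lie above all 3 YAP/TAZ arrays, while for mitosis and DNA replication genes and for small nucleolar RNAs the circle of ESR1 array 1 lies among the YAP/TAZ arrays or below them.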

How the data were processed

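The authors deposited 1 table of log2 expression values, 1 column per array for 32321 probe sets. The submitters' processing notes name affy; background correction, normalization and summary method were not given in the sources used here. Medians of the arrays ranged from 5.494 to 5.619. Names came from the platform annotation (19158 probe sets with 1 symbol, 1388 with several, 11775 with none), and 19128 matched RefSeq (GRCh38.p14) by gene ID. The probe set with the highest mean was kept for each of 18404 genes, which decided between several for 637. All 18 arrays entered 1 limma model (lmFit, contrasts.fit, eBayes; limma 3.58.1, R 4.3.3) with a mean per group and 12 residual degrees of freedom, two-sided, adjusted by Benjamini-Hochberg over all genes and checked on simulated data. A fold is 2 to the power of the log2 difference. The members and the 28 gene lists were chosen with earlier results of these data known. Named genes are ESR1, YAP1, WWTR1, LATS1 and LATS2, the 14 largest rises and falls among called genes without overlap and above the dim mark, up to 5 called members per list, and the members of the YAP/TAZ, Hippo and estrogen lists. Other names were picked after their values had been seen. The alternatives were 16 planned and 3 added settings.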

Additional observations from a re-analysis of the deposited data

How the results depend on the processing

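The count of 111 called genes (25 at 1.5-fold or more) stayed within 1.5 times under a replicate block (83, of which 81 were shared) and quantile normalization (145). It did so too under a filter on dim genes (110), means of probe sets (108), all probe sets (87 of 32321) and limma's trend and robust options (103). Deviations of same-numbered ESR1 and YAP/TAZ arrays from their group means correlated at -0.382, 0.0113 and -0.104. With 3 arrays per group, these values cannot settle whether the replicate numbers pair the arrays. Median centring gave 113, of which 38.9% were higher against 52.3% without it. The 6 arrays alone gave 2 calls (2 at 1.5-fold or more), and 1495 genes at an unadjusted p under 0.05 against 2529 in the fit of all 18 arrays. The 6 arrays with a replicate block gave 0 by limma (0 at 1.5-fold or more; 1134 at an unadjusted p under 0.05). Array weights gave 3123 (134). Leaving out 1 array gave between 48 and 2947 calls (between 16 and 178 at 1.5-fold or more). The highest was without ESR1 array 1, and the others were 60 and 54 without ESR1 arrays 2 and 3 and 48, 54 and 54 without YAP/TAZ arrays 1, 2 and 3. Settings added after the data had been seen, all without ESR1 array 1, gave 3856 (190) with only the other 5 arrays, 3181 (183) with median centring and 2611 (186) with quantile normalization. Of 48 named called genes none changed direction under these settings where they were tested; they were not followed in the fit of all probe sets, and ANKRD1 did not pass the filter on dim genes. The ESR1 difference of 0.73 was 0.34 in the mean of its probe sets. The causes of these changes were not tested.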
